A study of Mus musculus with 8 samples.

Results

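The response of Tbk1-/- mouse embryonic fibroblasts to B-DNA was read from 1 pair of Affymetrix arrays, out of 8 arrays that formed 4 such pairs. The first array of the pair held RNA of Tbk1-/- Ikbke+/+ cells taken 4 h after transfection with B-DNA, and the second held RNA of the same cells 4 h after mock transfection. B-DNA here is poly(dA-dT)-poly(dT-dA), a synthetic right-handed DNA double helix with no pathogen sequence. The other 3 pairs had the same treatments in wild-type cells (WT, Tbk1+/+ Ikbke+/+), Tbk1+/+ Ikbke-/- cells and Tbk1-/- Ikbke-/- cells, called double mutant below. All cells came from a C57BL/6 x 129Ola background, and every deletion was present throughout the culture on both arrays of its pair. With 1 array for each group and nothing in the labels on separate embryos or cultures, a ratio between the arrays of a pair has no replicate check. The comparison covered 9626 of 12393 named genes, namely those that reached a floor of 122 on at least 1 of the 8 arrays.

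Tbk1 is a serine/threonine kinase that stands between sensors of nucleic acid in the cytosol and the transcription factors Irf3 and Irf7, which it phosphorylates. Once phosphorylated, these factors enter the nucleus and switch on type I interferon genes and a first set of antiviral genes, and secreted interferon then acts through Jak kinases and Stat factors on interferon-stimulated genes. Ikbke encodes a close relative of Tbk1 with overlapping substrates, and in fibroblasts it is known as the less abundant and more inducible kinase. The pair of Tbk1-/- arrays compares transcript levels 4 h after B-DNA with those 4 h after mock transfection. Of these kinases, the genotype of the cells leaves only Ikbke intact.

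The brighter Tbk1 probe set read 226 on the Tbk1-/- mock array and 305 on the Tbk1-/- B-DNA array. It read 501 and 989 in WT cells, 472 and 910.0 in Ikbke-/- cells, and 290.0 and 389.6 in the double mutant, in the same order. Each genotype labelled Tbk1-/- was thus below each Tbk1+/+ genotype at the same treatment, and whether the probes lie in the deleted part of the gene is not known here. Ikbke was under the floor on all 8 arrays, with Ikbke at 20.6 and 12.8 in Tbk1-/- cells, so its level in these cells was not measured.

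Before scaling, the 2% trimmed mean signal was 255 on the Tbk1-/- mock array and 226 on the Tbk1-/- B-DNA array, within a range of 140 to 255 over all arrays, and each array was brought to 500. The 3' to 5' signal ratio of Gapdh was 0.858 and 0.842 on the pair, and that of Actb 1.32 and 1.30, the highest Actb ratios of the 8 arrays. None of 12 fibroblast genes differed 2-fold in the pair, and the mesenchymal filament gene Vim read 22851 and 22664. Prrx1, a mesenchymal homeobox gene, was under the floor in Tbk1-/- cells (101 and 103) and between 1701 and 4360 on the other 6 arrays. Of 6 epithelial markers, 2 reached 244 on the Tbk1-/- mock array and 1 on the Tbk1-/- B-DNA array. Krt19, an epithelial keratin, read 995 and 900.5 in Tbk1-/- cells and was under the floor elsewhere. Krt8 and Cldn4 were above the floor on at least 1 array of the pair, while Krt5, Krt14 and Krt18 were under the floor in Tbk1-/- cells. Of 7 cartilage markers, 4 reached 244 on both Tbk1-/- arrays, among them Col2a1 at 4891 and 5232, and 3 were under the floor on both. Their summed signal was 8731 and 8713 in Tbk1-/- cells, 4925 and 5132 in WT, 54927 and 58304 in Ikbke-/-, and 1770 and 1628 in double mutant cells. Of 17 macrophage and leukocyte markers, 12 were under the floor on both Tbk1-/- arrays. Their summed signal was 1734 and 1859 there, from 1418 to 1844 on the Ikbke-/- and double mutant arrays, and 22074 and 6268 on the WT mock and B-DNA arrays. The part of these differences in culture composition in any contrast between genotypes was not tested, and fewer cells of a type cannot be told apart from less RNA per cell.

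The Tbk1-/- pair had the narrowest spread of the 4 pairs. Over the 7495 genes above the floor on both of its arrays, the SD of the log2 ratio of B-DNA to mock was 0.308, and 93.69% of the genes lay within 1.5-fold. The SD was 0.558 in the WT pair, 0.591 in the Ikbke-/- pair and 0.365 in the double mutant pair. The spread narrowed with signal, from an SD of 0.353 among genes of mean signal 122 to 250 to 0.242 among genes at 2000 or more. To be called higher or lower, a gene needed a 2-fold difference and a signal of at least 244 on the brighter array. In Tbk1-/- cells 28 genes (0.291%) met this rule upward and 39 (0.405%) downward. In WT cells 315 (3.27%) were higher and 182 (1.89%) lower, in Ikbke-/- cells 342 (3.55%) and 158 (1.64%), and in the double mutant 52 (0.54%) and 72 (0.748%). Without further scaling of the arrays, which lowers each log2 ratio of the Tbk1-/- pair by 0.18 apart from floored values, the counts were 23 and 105.

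**Figure D1:**
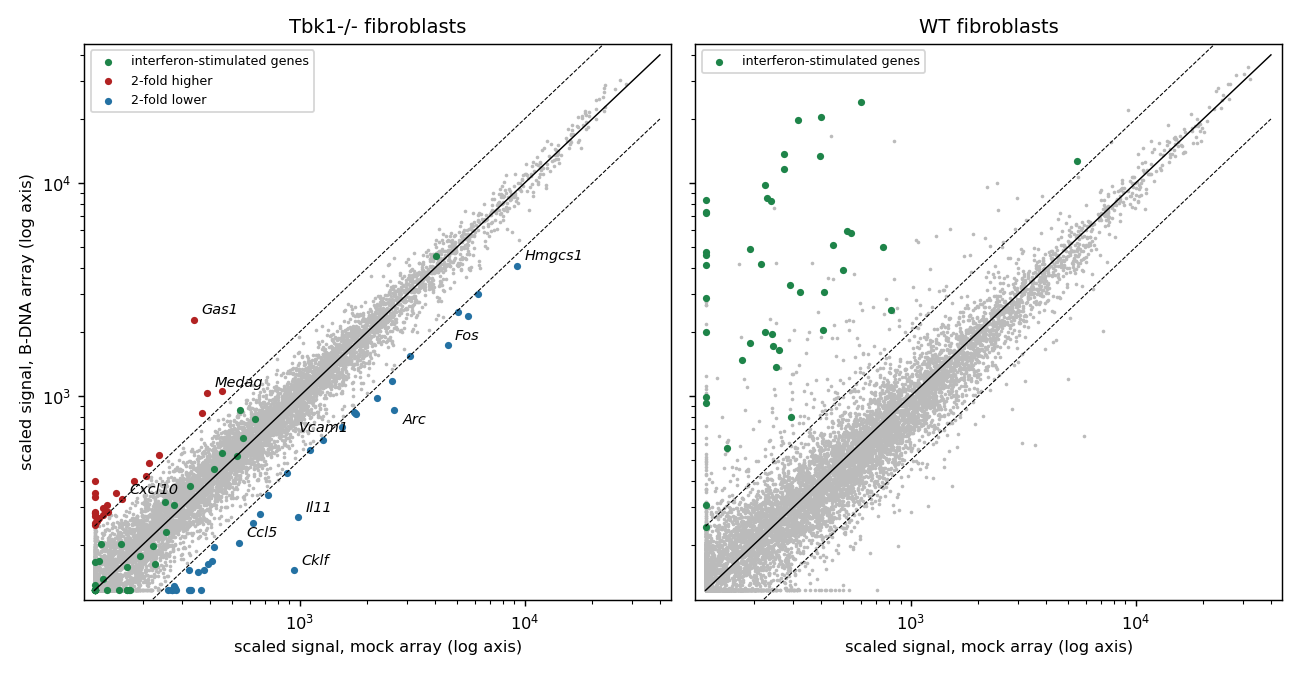
Scaled signal of each gene on the B-DNA array (y axis, log) against the mock array (x axis, log) in Tbk1-/- cells (left) and WT cells (right), with equality as a solid line, 2-fold as dashed lines and values under the floor of 122 drawn at the floor. The 43 interferon-stimulated genes (green) lie along the line of equality in Tbk1-/- cells and, except for 1 gene, above the upper dashed line in WT cells.

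Interferon-stimulated genes did not reach 2-fold in Tbk1-/- cells. Of 43 measured genes of this list, 0 were higher and 0 lower, the median log2 ratio was 0.00, and the values ran from -0.52 to 0.66. On both Tbk1-/- arrays 16 of the 43 were under the floor, which sets their ratio to 0. The median of 0.00 falls among these, with 15 ratios above 0 and 12 below. In WT and Ikbke-/- cells 42 of the 43 were higher, with medians of 3.50 and 4.31, and the double mutant median was 0.00. The median over all 9626 genes was 0.00 in the Tbk1-/- pair, and 0.03 over the 7495 genes above the floor on both of its arrays.

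Ifit1 and Ifit3, which encode proteins that bind foreign RNA and antiviral adaptors, show the pattern. Ifit1 read 65.1 (mock) and 104 (B-DNA) in Tbk1-/- cells, 600.0 and 23925 in WT cells, 454 and 21838 in Ikbke-/- cells, and 149 and 138 in the double mutant. Ifit3 read 65.5 and 35.4 in Tbk1-/- cells, 314 and 19679 in WT cells, 288 and 24582 in Ikbke-/- cells, and 235 and 265 in the double mutant. For both genes the Tbk1-/- arrays were the lowest 2 of the 8. Mx1, an antiviral GTPase, was likewise under the floor on both (40.8 and 57.8), as was Ifit2 (28.8 and 15.5). Rsad2, the antiviral enzyme viperin, read 157 and 88.6, and Irf7, the interferon-induced transcription factor, 194 and 177.

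Promoters of many interferon-stimulated genes hold the interferon-stimulated response element (ISRE), the binding motif of Irf and Stat-containing complexes. Promoters were taken from RefSeq on the GRCm38.p6 build for 9887 of the 12393 array genes, and the 250 bases before the transcription start were searched on both strands. The ISRE was searched as GAAA, any 2 bases and GAAA again, and found in 13 of 31 interferon-stimulated genes with a promoter (41.9%) and in 3.35% of all 9887. The stretches below show the 2 Ifit promoters, of genes under the floor in Tbk1-/- cells, and that of Cxcl10, the 1 gene of the immune lists counted as higher. They are written along each gene's strand up to the base before its start, and a match is a description of letters, not a site shown to be used. Capitals mark the ISRE on either strand, the TGANTCA motif of AP-1 (Fos and Jun dimers) and, in Cxcl10, the motif of NF-kB (GGG, any 2 bases, TT, any base, CC). A TGANTCA match reads the same on both strands and is counted once.
Ifit1, chr19:34640769-34640888, plus strand: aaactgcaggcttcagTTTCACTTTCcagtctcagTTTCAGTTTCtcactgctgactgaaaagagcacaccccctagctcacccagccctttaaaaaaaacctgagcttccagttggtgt
Ifit3, chr19:34583359-34583528, plus strand: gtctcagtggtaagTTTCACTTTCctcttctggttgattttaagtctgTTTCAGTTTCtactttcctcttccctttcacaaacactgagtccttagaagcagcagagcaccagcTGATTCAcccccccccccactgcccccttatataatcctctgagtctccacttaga
Cxcl10, chr5:92348890-92349109, minus strand: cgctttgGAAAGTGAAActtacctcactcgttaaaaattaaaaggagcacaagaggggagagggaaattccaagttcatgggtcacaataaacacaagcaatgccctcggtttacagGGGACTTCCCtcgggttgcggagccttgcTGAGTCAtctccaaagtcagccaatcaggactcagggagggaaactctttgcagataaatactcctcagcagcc
The 2 ISRE matches of Ifit1 begin 104 and 85 bases before the start and those of Ifit3 begin 156 and 122 bases before it. Cxcl10 has its ISRE match 213, its NF-kB match 103 and its AP-1 match 74 bases before the start. The NF-kB motif was found in 5.46% of all promoters and the AP-1 motif in 6.84%.

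Within the interferon-stimulated list, the values of the genes well above the floor were close to even. Ifitm3, which blocks virus entry at membranes, read 4056 and 4549 in Tbk1-/- cells (log2 ratio 0.17), against 5481 and 12639 in WT cells. Irgm1, an immunity-related GTPase, read 629 and 781 (0.31), and Isg20, an exonuclease, 525 and 521 (-0.01). Lgals3bp, a secreted glycoprotein, had the highest ratio (0.66, from 542 to 858) and was the only gene of the list past 1.5-fold, where 2.31% of all genes were 1.5-fold higher. Stat2, a part of the interferon-activated Stat complex, came next at 0.63, from 131 to 202, under the 244 needed for a count. The lowest ratios belonged to genes whose B-DNA signal was under the floor: Bst2 (at least 1.43-fold lower, from 175 to 72.9), Oas1a (174 to 35.2) and Iigp1 (171 to 121). On the 4 B-DNA arrays the Tbk1-/- signal was the lowest in 34 of the 43 genes, against 23.9% of all genes, although signals under the floor have no measured order among themselves.

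Upstream parts of the pathway did not reach 2-fold either, over a wider range of ratios. Among 21 genes of nucleic acid sensing and Tbk1 adaptors, 0 were higher and 0 lower in Tbk1-/- cells. Irf3, the main Tbk1 substrate, read 988 and 1024, and Sting1, the adaptor for cytosolic DNA, 383 and 429.8 against 422 and 1199 in WT cells. The widest values were those of Ikbkg, the NEMO subunit of the IkB kinase complex (302 to 572, log2 ratio 0.92), and Tank, a Tbk1-binding scaffold (401 to 242, -0.73). Ddx3x (-0.18), Map3k7 (-0.26), Azi2 (0.32) and Tlr4 (0.36) lay nearer to 0. In the list of 16 interferon, receptor and Jak-Stat genes 0 were higher and 0 lower. Ifnb1, the interferon beta gene, was under the floor on both arrays (106 and 75.1) and reached 221 in WT and 194 in Ikbke-/- cells after B-DNA, below the count rule there too. Ifnar2, an interferon receptor chain, had the lowest ratio of this list (-0.51), and Socs1, a feedback inhibitor of Jak kinases, the highest (0.44, from 150 to 203), against 3.13 for Socs1 in WT cells. Socs2 (0.41) and Ifngr2 (0.28) followed.

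Antigen presentation by MHC class I gave 0 higher and 0 lower of 14 genes in Tbk1-/- cells, with ratios from -0.10 to 0.20. Their median log2 ratio was 0.01 in Tbk1-/- cells, 1.64 in WT, 1.71 in Ikbke-/- and -0.02 in double mutant cells. Tap1, the peptide transporter, read 255 and 288 in Tbk1-/- cells and 364 and 4199 in WT cells. H2-K1, a classical class I heavy chain, read 5236 and 4883 against 3843 and 8690. Psme1 (0.20), Pdia3 (0.18) and Psmb10 (-0.10) marked the ends of the range, so that all 14 genes differed by less than 1.5-fold.

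Chemokines and cytokines gave the only higher gene of any immune list. Cxcl10, a T cell attractant, read 161 and 328 in Tbk1-/- cells (log2 ratio 1.02), 440 and 16600 in WT, 392 and 18387 in Ikbke-/-, and 16.4 and 108 in double mutant cells. The Tbk1-/- B-DNA signal was thus below the mock signals of both Tbk1+/+ genotypes. The ratio was 1.01 when arrays were scaled to the median, but 0.85 without further scaling and 0.95 after quantile normalization, both short of 2-fold.

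Ccl5, an attractant of T cells and monocytes, ran the other way. It read 538 and 204 in Tbk1-/- cells (-1.40), 841 and 15819 in WT, 795 and 15614 in Ikbke-/-, and 665 and 545 in double mutant cells. Both Tbk1-/- signals were below the mock signals of the other 3 genotypes. Cklf, a chemokine-like factor, had the lowest ratio of all genes (-2.63, from 941 to 152), though its other probe sets gave values between -0.84 and 0.05. Il11, an Il6-family cytokine of stromal cells, went from 982 to 269 (-1.87), and WT cells gave -1.84 (437 to 117, the latter under the floor, so at least that difference). In all, 1 of 32 genes was higher and 3 lower, with a median of 0.00 in the Tbk1-/- pair and 0.63 in the WT pair. The median of 0.00 falls among 12 genes under the floor on both Tbk1-/- arrays, whose ratio is set to 0. Of the others, 7 had a ratio above 0 and 13 below.

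Other genes of the list were under 2-fold. Clcf1 (-0.95, 1995 to 1031) and Lif (-0.89, 3772 to 2036), like Il11 cytokines that signal through the gp130 receptor chain, were close to the threshold. Il6 read 521 and 374 in Tbk1-/- cells (-0.48) against 345 and 1861 in WT. The monocyte attractant Ccl2 read 4393 and 3096 (-0.50) and Ccl7, of the same group, 733 and 737 (0.01). In the double mutant these genes gave 1.04 and 1.78. The neutrophil attractant Cxcl1 read 311 and 291 (-0.09) in Tbk1-/- cells and 131 and 1078 (3.05) in the double mutant, and Cxcl2, of the same kind, was under the floor on both Tbk1-/- arrays and gave at least 2.08 in the double mutant.

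Tbk1-/- cells had 0 higher and 1 lower of 27 NF-kB target genes, and 18 had a ratio below 0. The share of all genes with a ratio below or above 0 is not given here. Such counts, in this and later lists, are therefore a description. By 1.5-fold 4 were lower and 0 higher, where 2.08% and 2.31% of all genes were. The list median was -0.11, against 0.19 in WT, 0.22 in Ikbke-/- and 0.23 in double mutant cells. The median of all genes in the Tbk1-/- pair was 0.00. Vcam1, an adhesion molecule for leukocytes, read 1734 and 838 in Tbk1-/- cells (-1.05), 2963 and 8523 in WT, 2555 and 5384 in Ikbke-/- and 3144 and 3401 in double mutant cells. Its 2 other probe sets gave -0.67 and -0.70. The Tbk1-/- signals were the lowest of each treatment. Zfp36 (-0.68), an mRNA decay factor, Ier3 (-0.67) and the adhesion molecule Icam1 (-0.59, 883 to 585) followed. Nfkbia, the inhibitor IkB alpha, read 12408 and 9799 (-0.34), and Tnfaip3, the ubiquitin-editing inhibitor A20, 209 and 237 (0.18). Irf1, an interferon- and NF-kB-induced transcription factor, read 1005 and 1044 (0.05), whereas the other 3 pairs gave 2.12, 1.64 and 1.60.

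The contrasts between genotypes were put to limma on the 4 pair ratios, with WT and Ikbke-/- cells as a group and 1 residual degree of freedom. The Tbk1-/- ratio was compared with the mean of the WT and Ikbke-/- ratios, and then with the double mutant ratio. No gene passed a Benjamini-Hochberg adjusted p of 0.05 in either contrast (0% each). The lowest adjusted p was 0.398 and 0.536, while 502 genes lower and 673 higher in the first contrast, and 863 in the second, had an unadjusted p under 0.05. Gene by gene, Ifih1, a sensor of double-stranded RNA, differed by -6.16 (SE 0.72), Ccl5 by -5.66 (SE 0.09), Cxcl10 by -4.37 (SE 0.21) and Vcam1 by -2.35 (SE 0.30), all at an adjusted p of 0.398 in limma.

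When the same limma fit was run on the 6665 genes whose signal exceeded the floor on every array, 66 genes (0.99%) had a lower ratio in Tbk1-/- cells than in Tbk1+/+ cells and 13 (0.195%) a higher one. The second contrast stayed at 0 there, with 488 genes at an unadjusted p under 0.05. Of the interferon-stimulated list, 15 of the 18 genes that could enter were among the 66, as were 4 of 12 MHC class I genes, 3 of 14 chemokines and cytokines, 2 of 22 NF-kB target genes and 1 of 27 immediate early genes. The lowest differences were those of Ifih1 (-6.16), Ccl5 (-5.66), Igtp (-5.18) and Irf7 (-4.61). Gas1 (4.56), Medag (2.42), Nfic (1.67), Unc119 (1.66) and the activin subunit gene Inhba (1.60) were among the 13. Other fits pooled the Tbk1-/- pair with the double mutant pair, so their counts are for both Tbk1-lacking genotypes and not for the Tbk1-/- pair alone. These counts were 176 lower and 23 higher with additive effects of both deletions, and 99 and 5 with 2 groups by Tbk1 genotype. The second contrast cannot be formed in these fits. The calls with 2 groups were lost when the WT, the Ikbke-/- or the double mutant pair was left out, which leaves 1 residual degree of freedom. Without the double mutant pair that fit is the first contrast again, so it adds no check. WT and Tbk1-/- cells expressed Xist (2950.1 and 3149 in Tbk1-/- cells) and the Ikbke-/- genotypes did not reach 244, so Ikbke genotype and sex cannot be told apart, and the mean of WT and Ikbke-/- cells spans both.

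**Figure D2:**
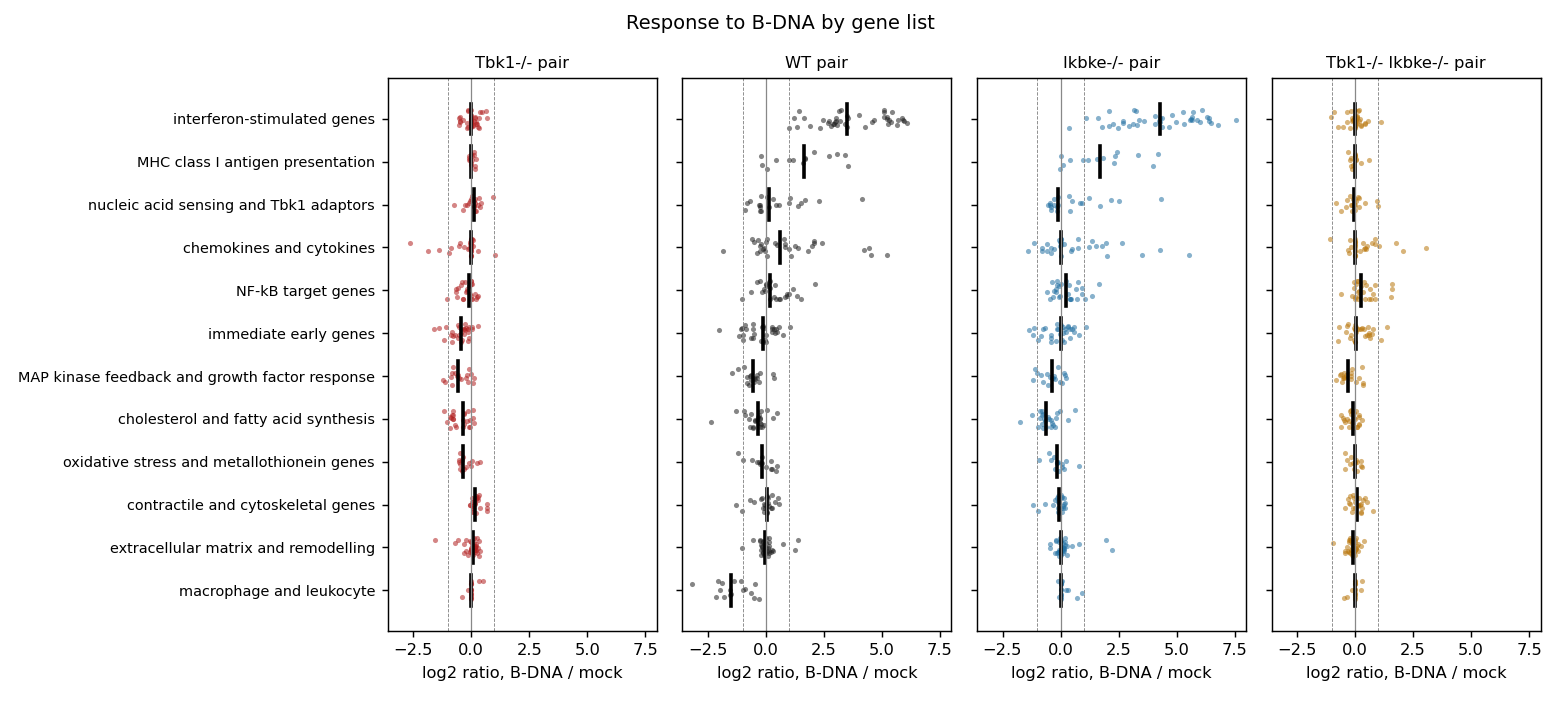
Log2 ratio of B-DNA to mock for the members of 12 gene lists (points, spread vertically for visibility) and the list median (black bar) in each of the 4 pairs, with dashed lines at 2-fold. In the Tbk1-/- pair the interferon-stimulated genes run from -0.52 to 0.66, and the immediate early and MAP kinase lists have medians of -0.43 and -0.56.

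Immediate early genes lay mostly below 0 in the Tbk1-/- pair, and 4 of them were among its 39 lower genes. Such genes are induced within minutes of a stimulus without new protein synthesis and code largely for transcription factors such as Fos, Jun and Egr proteins. Of 31 such genes 0 were higher, 4 were lower and 28 had a ratio below 0 in Tbk1-/- cells, with a median of -0.43. By 1.5-fold 9 of the 31 were lower, where 2.08% of all genes were. The WT and Ikbke-/- pairs had 8 and 7 of the 31 lower by 1.5-fold, where 7.22% and 7.84% of all genes were, and the double mutant had 2, where 4.2% were. The medians in those pairs were -0.14, 0.00 and 0.04.

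Fos, the Jun partner in the classical AP-1 dimer, read 4556 and 1731 in Tbk1-/- cells (-1.40), 1406 and 695 in WT, 3563 and 1600.3 in Ikbke-/-, and 608 and 740.3 in double mutant cells. Fosb, its relative, read 2209 and 975 (-1.18), 439 and 224, 1321 and 675, and 160.2 and 157 in the same order. For both genes the Tbk1-/- mock signal was the highest of the 8 arrays, and the Tbk1-/- B-DNA signal remained the highest of the 4 B-DNA arrays. Arc, a synaptic and cytoskeletal protein induced with this set, read 2623 and 859.8 (-1.61) in Tbk1-/- cells, 708 and 397 in WT, 1992 and 2262 in Ikbke-/-, and was under the floor in the double mutant. Atf3, a stress-induced repressor, read 1769 and 831 (-1.09) in Tbk1-/- cells, 437 and 647 in WT, 1413 and 2121 in Ikbke-/-, and 231 and 596 in double mutant cells. Of the 4 pairs, the Tbk1-/- pair alone had a lower Atf3 signal after B-DNA, at a limma difference of -1.67 (SE 0.08, adjusted p = 0.398) from the Tbk1+/+ pairs.

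The other 5 genes past 1.5-fold were Nr4a2 (-0.87), an orphan nuclear receptor, Trib1 (-0.82), a pseudokinase, the Krüppel-like factors Klf4 (-0.82) and Klf10 (-0.78), and Junb (-0.69). Jun read 1866 and 1384 (-0.43) and Egr1 6932 and 5626 (-0.30). Ccn1 had the highest ratio of the list (0.29). The mock level bears on this list: the Tbk1-/- mock signal was the highest of the 4 mock signals in 23 of 31 genes (74.2%, against 20.5% of all genes), and after B-DNA the Tbk1-/- signal was the highest in 12. The share of that mock level in the ratios was not tested.

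Many immediate early promoters carry the TGACG core of the cAMP response element, to which Creb and Atf factors bind. It was found in 14 of 21 genes of the list with a promoter (66.7%) and in 27.0% of all 9887. The promoters of Fos and Fosb are shown because both genes were counted as lower, with capitals marking TGACG on either strand.
Fos, chr12:85473750-85473889, plus strand: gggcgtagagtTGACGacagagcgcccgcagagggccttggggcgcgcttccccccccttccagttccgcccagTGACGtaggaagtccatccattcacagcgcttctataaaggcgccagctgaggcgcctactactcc
Fosb, chr7:19310046-19310185, minus strand: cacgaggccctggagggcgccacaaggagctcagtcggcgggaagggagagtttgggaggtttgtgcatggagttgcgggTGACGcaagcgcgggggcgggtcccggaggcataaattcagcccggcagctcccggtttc
The Fos matches begin 129 and 66 bases before the start and the Fosb match 60 bases before it. Of the 39 lower genes 25 had a promoter entry, and 8 of these held TGACG and 5 the AP-1 motif. Among the 28 higher genes 23 had one, with 6 and 4.

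Genes of MAP kinase feedback and growth factor response, many of which are induced by Erk signalling and then restrain it, lay mostly below 0 too. Of 18 genes 0 were higher, 2 were lower and 16 had a ratio below 0, and the median was -0.56. By 1.5-fold 9 of 18 were lower in Tbk1-/- cells, 9 in WT, 5 in Ikbke-/- and 2 in double mutant cells, with medians of -0.58, -0.36 and -0.29 in the last 3. The shares of all genes lower by 1.5-fold were 2.08%, 7.22%, 7.84% and 4.2% in the same order. Ereg, the Egf receptor ligand epiregulin, read 5576 and 2379 (-1.23) in Tbk1-/- cells, 2360.1 and 1522 in WT, 1718 and 765 in Ikbke-/-, and 227 and 129 in double mutant cells. It was lower after B-DNA in all 4 pairs. Dusp6, the Erk phosphatase, read 1773 and 820.1 (-1.11) in Tbk1-/- cells, 1517 and 1059 in WT, 1063 and 1053 in Ikbke-/-, and 234 and 158 in double mutant cells.

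The remaining 7 were Spry2 (-0.88) and Spred2 (-0.70) and Spred1 (-0.59), inhibitors of Ras to Raf signalling, the phosphatases Dusp2 (-0.84) and Dusp10 (-0.80), and the growth factors Vegfa (-0.81) and Hbegf (-0.60). Dusp1, a phosphatase of stress kinases, stood apart at 3734 and 3893 (0.06), against -0.83 in WT cells. The Tbk1-/- mock signal was the highest of the 4 mock signals in 11 of the 18 genes.

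**Figure D3:**
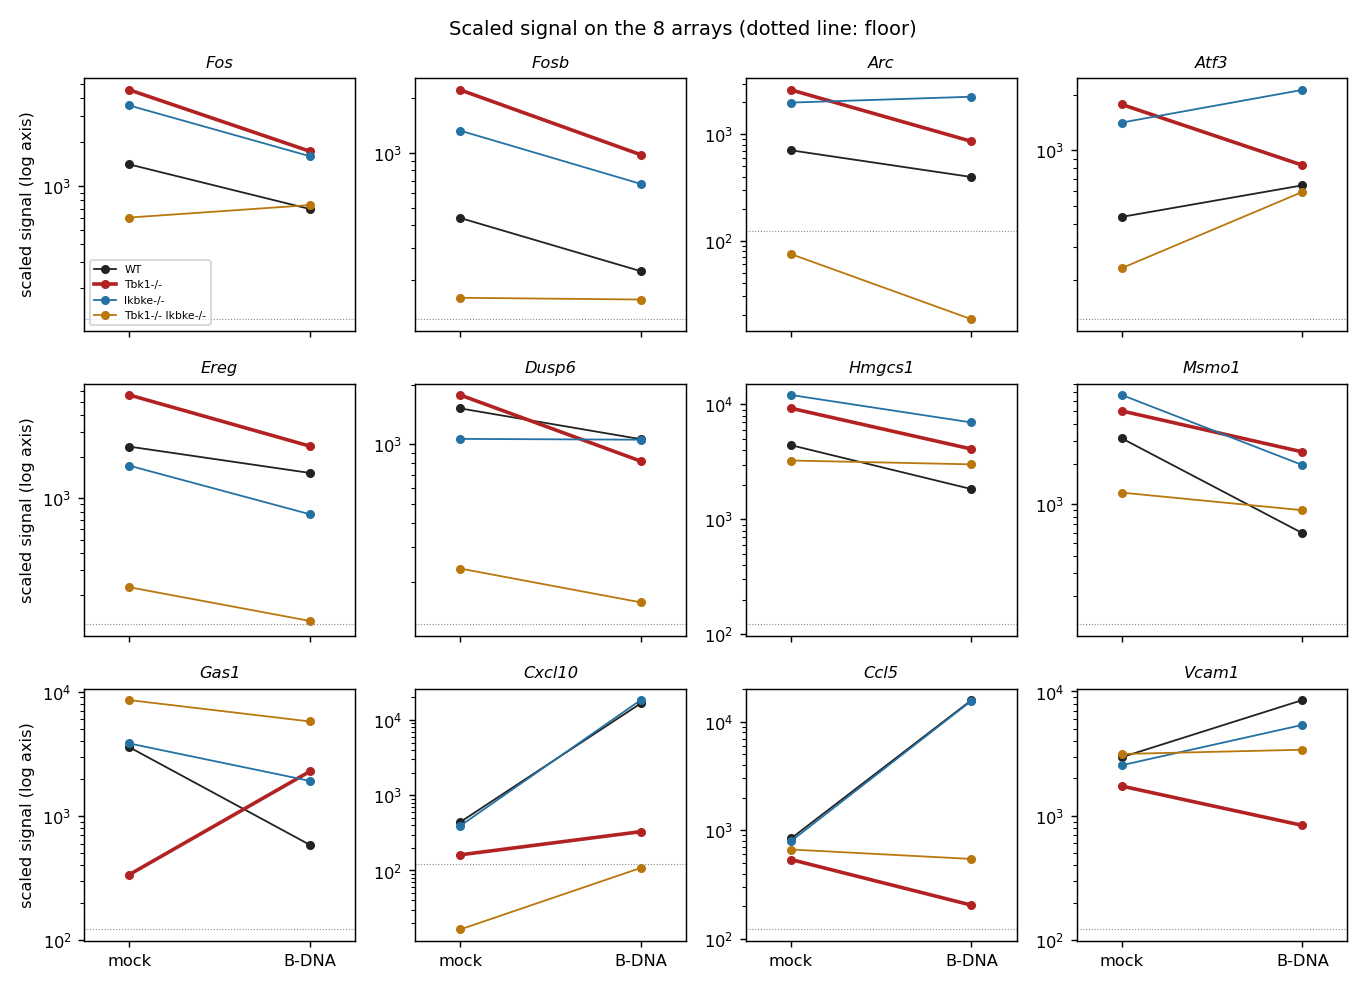
Scaled signal (log axis, unfloored) of 12 genes on the mock and B-DNA array of each genotype, joined by a line per genotype with Tbk1-/- in red and the floor of 122 dotted. Fos, Fosb and Ereg start highest in Tbk1-/- mock cells, Gas1 starts lowest there, and the Ccl5 and Vcam1 lines run down in Tbk1-/- cells and up in WT and Ikbke-/- cells.

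Genes of cholesterol and fatty acid synthesis lay mostly below 0 as well. This set is controlled by the Srebp transcription factors, which answer to the sterol content of the endoplasmic reticulum. Of 25 genes 0 were higher, 2 were lower and 22 had a ratio below 0 in Tbk1-/- cells, with a median of -0.36. By 1.5-fold 12 of the 25 were lower in Tbk1-/- cells, 7 in WT, 13 in Ikbke-/- and 2 in double mutant cells, and the medians of the last 3 pairs were -0.34, -0.62 and -0.11. Over all genes these shares were 2.08%, 7.22%, 7.84% and 4.2%.

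Hmgcs1, which makes HMG-CoA for the mevalonate pathway, read 9264 and 4093 (-1.18) in Tbk1-/- cells, 4422 and 1835 in WT, 12083 and 6969 in Ikbke-/-, and 3253 and 3012 in double mutant cells. Its 3 other probe sets gave -1.27 to -1.35, so that 4 probe sets of the gene were past 2-fold. Msmo1, a sterol methyl oxidase, read 5036 and 2468 (-1.03) in Tbk1-/- cells, 3122 and 599 in WT, 6651 and 1964 in Ikbke-/-, and 1213 and 893 in double mutant cells. Its Tbk1-/- ratio was smaller in size than those of WT (-2.38) and Ikbke-/- cells (-1.76), a limma difference of 1.04 (SE 0.40, adjusted p = 0.463).

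Some but not all of the other enzymes between mevalonate and cholesterol were past 1.5-fold. Hsd17b7 (-0.93), Idi1 (-0.90) and Mvk (-0.86), which act on sterol ketones, isopentenyl pyrophosphate and mevalonate, were nearest to 2-fold. Also past 1.5-fold were Fdft1 (-0.80), which makes squalene, and Sqle (-0.78) and Lss (-0.77), which act on squalene and its epoxide. So were Sc5d (-0.82), Cyp51 (-0.78) and Nsdhl (-0.70), which act on sterols, and the sterol carrier Stard4 (-0.64). Short of 1.5-fold were Fdps (-0.36), Mvd (-0.31), Ebp (-0.14), Dhcr7 (-0.12) and Pmvk (0.13), enzymes of the same route. Fatty acid genes were nearer to 0, with Fasn at -0.33, Acly at -0.33, Scd1 at -0.18 and Scd2 at -0.04. The mock signal of Tbk1-/- cells was the highest of 4 in 3 of the 25 genes. Summed over the list, the mock signal was 53615 in Tbk1-/-, 63042 in Ikbke-/-, 34901 in WT and 29945 in double mutant cells. The share of the mock level in these ratios was not tested.
The Hmgcs1 promoter is shown for its match to the sterol response element CACCCCAC, in capitals, which was found in 1 of 19 promoters of this list and in 3.49% of all.
Hmgcs1, chr13:119690191-119690350, plus strand: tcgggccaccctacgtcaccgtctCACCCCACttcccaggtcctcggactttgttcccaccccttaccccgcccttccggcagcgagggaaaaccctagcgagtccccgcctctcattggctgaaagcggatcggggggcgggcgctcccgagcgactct
The match begins 136 bases before the start.

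Several of the other lower genes had low signals and a B-DNA value under the floor. Serpinb2, an inhibitor of urokinase, went from 365 to 89.3 (at least 2.99-fold), the noncoding transcript U90926 from 327 to 34.8 (at least 2.68-fold), Lce1h, a cornified envelope gene, from 325 to 54.9 (at least 2.66-fold), and Ngef, a guanine nucleotide exchange factor, from 321 to 85.1 (at least 2.63-fold). In WT cells U90926, Lce1h and Ngef were under the floor on both arrays. Krt16, Gm13889, Lpin1, Gsta4 and Prss2 were at least 2.12-fold to 2.30-fold lower with the same limit.

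Better-expressed genes were led by Ndrg1, a stress- and hypoxia-induced gene, at 6215 and 3016 (-1.04) in Tbk1-/- cells against 960.0 and 707 in WT, 2117 and 1693 in Ikbke-/-, and 1586 and 671 in double mutant cells. Its 4 other probe sets gave -0.71 to -1.23. Tcim, a small regulator of Wnt signalling, read 1541 and 714 (-1.11) and was lower 2-fold in WT and Ikbke-/- cells as well. Ube2s, an E2 enzyme of the anaphase-promoting complex, read 3087 and 1534 (-1.01), Rcan1, a calcineurin inhibitor, 1266 and 620.1 (-1.03), and Pdgfb, a growth factor, 1115 and 556, just past 2-fold. Pim1, a kinase induced by cytokines, read 720 and 343 (-1.07) in Tbk1-/- cells but 30.2 and 302 in WT and 73.3 and 280 in Ikbke-/- cells. Its other probe set was at or near the floor (139 and 52.9).

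Sfrp1, a secreted Wnt antagonist, read 2572 and 1170 (-1.14), but its 3 other probe sets gave between -0.09 and 0.12. The remaining lower genes were Lmcd1 (-1.30), Slc30a1 (-1.28), a zinc exporter, the noncoding Pvt1 (-1.28), Ly96 (-1.27), the Tlr4 partner MD-2, Cysrt1 (-1.26), Tiam2 (-1.25), a Rac exchange factor, Mmp19 (-1.16), a matrix metalloproteinase, Vgll4 (-1.10), Acsl4 (-1.09), a fatty acyl-CoA ligase, Snap29 (-1.08) and Chpt1 (-1.02). Other probe sets ran the opposite way for Chpt1 (0.10 and 0.73), Prss2 (0.66), Pvt1 (0.43) and Snap29 (0.11), and the mean of its probe sets put Chpt1 at -0.05. Of the 14 lower genes with other probe sets, 7 had one with a log2 ratio of -0.5 or below, and of 4 such higher genes 3 had one at 0.5 or above. Of all 39 lower genes, 7 were also 2-fold lower in WT cells (of 182 there), 6 in Ikbke-/- (of 158) and 1 in double mutant cells (of 72). Those 2-fold higher numbered 3, 4 and 1. The Tbk1-/- mock signal was the highest of the 4 mock signals in 24 of the 39, and the B-DNA signal the lowest of the 4 in 11, against 20.5% and 23.9% of all genes. These genes were chosen for a high mock and a low B-DNA signal, so the shares are a description.

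Among the 28 higher genes Gas1 had the highest ratio. Gas1 is a membrane-anchored protein that binds Hedgehog ligands and accumulates in growth-arrested fibroblasts. It read 338 and 2282 (2.76) in Tbk1-/- cells, 3574 and 586 in WT, 3831 and 1915 in Ikbke-/-, and 8554 and 5758 in double mutant cells. The Tbk1-/- mock array had the lowest Gas1 signal of all 8, and the ratio was negative in each of the other 3 pairs. Its second probe set went from 598 to 1196. The limma difference from the Tbk1+/+ pairs was 4.56 (SE 1.02, adjusted p = 0.407).

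Medag, a gene linked to adipocyte differentiation, was lower in WT and Ikbke-/- cells and higher in both Tbk1-/- genotypes. It read 388 and 1038 (1.42) in Tbk1-/- cells, 418 and 154 in WT, 639 and 435 in Ikbke-/-, and 398 and 643 in double mutant cells. Ctnnd1, the p120 catenin of adherens junctions, read 449 and 1058 (1.24), and unlike Gas1 it was also higher in WT (1.20) and Ikbke-/- cells (1.36), with 0.02 in the double mutant. Nfic, a nuclear factor I transcription factor, read 366 and 834 (1.19), below the 1119 to 2552 of the other 6 arrays at both treatments.

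Several of the higher genes were near the floor on the mock array. C1qtnf1, a secreted C1q-related protein, went from 121 to 399 (at least 3.27-fold), Cdr2l from 105 to 351 (at least 2.87-fold), and Chst12, a chondroitin sulfotransferase, from 49.6 to 335 (at least 2.74-fold). Steap3, a ferrireductase, was at least 2.34-fold, Fastk at least 2.30-fold and Snai2, the mesenchymal repressor Slug, at least 2.30-fold higher. The other probe sets of Steap3 gave log2 ratios of at least 0.39 (102 to 160) and of 0.11 (134 to 144). C1qtnf1 was 2-fold higher in WT and Ikbke-/- cells too, whereas Cdr2l was 2-fold lower in both. Snx11 (1.20), Ufsp2 (1.19), Pih1d1 (1.16), Clstn3 (1.16), Calhm5 (1.14), Arsi (1.13), Ccdc28a (1.09), Unc119 (1.07), Paqr7 (1.05), Lmf1 (1.05), Rps6kb2 (1.04), Entpd2 (1.03), Slc29a3 (1.02) and Cpne2 (1.02) made up the measured rest, and Btbd2, Grik5 and Snx29 were at least 2.04-fold to 2.24-fold higher.

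The higher genes were weakly expressed as a group. In 23 of the 28 the B-DNA signal was under 500, against 17 of 39 lower genes for the mock signal, and 3 of 28 against 15 of 39 reached 1000. Of the 28, 15 met the rule in each of 3 other scalings (none, median and quantile), as did 38 of the 39. Leaving out the scaling lowers the ratios of this pair, which by itself keeps lower calls and can lose higher calls near 2-fold. The shares thus do not show which calls hold better. The Tbk1-/- mock signal was the lowest of the 4 mock signals in 19 of the 28 and the B-DNA signal the highest of the 4 in 7, against 26.9% and 23.7% of all genes. As with the lower genes, the choice by a low mock and a high B-DNA signal makes these shares a description. Also 2-fold higher were 4 in WT (of 315 there), 5 in Ikbke-/- (of 342) and 0 in double mutant cells (of 52), and 3, 2 and 0 were 2-fold lower. Just outside the rule lay Trmt1l (139 to 278, just under 2-fold), Sgpp1 (395 to 780.0, 0.98) and Epha4 (211 to 413, 0.97) above, and Erf (803 to 404, -0.99), Fam110c (1437 to 734, -0.97) and Clcf1 below. Just inside were Cxcl10, Cpne2 and Slc29a3, all at 1.02, and Ube2s at -1.01 with Pdgfb.

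**Figure D4:**
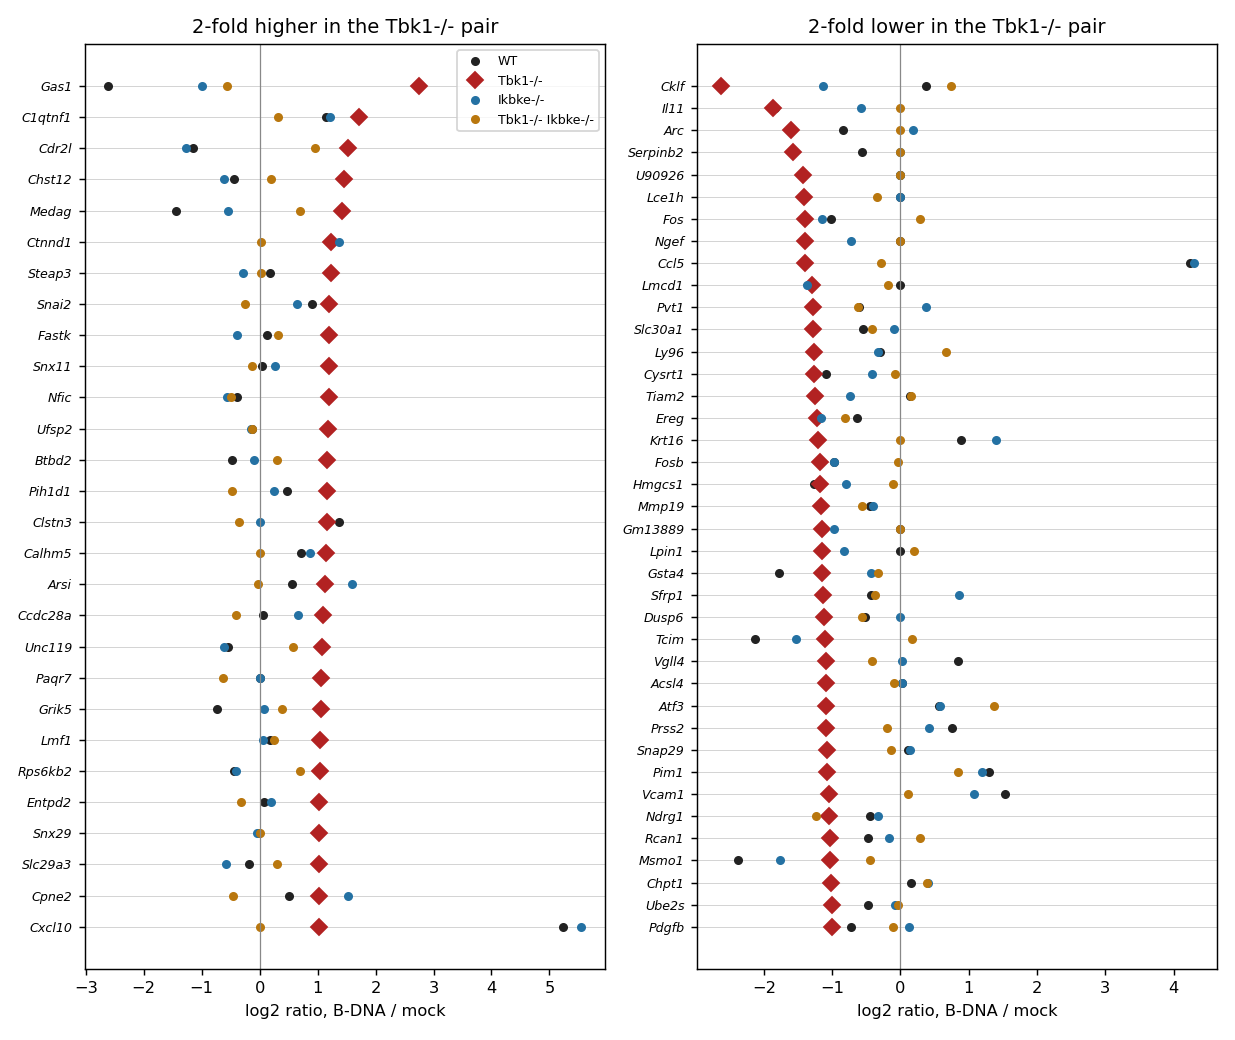
Log2 ratio of B-DNA to mock of the 28 genes higher (left) and 39 lower (right) in the Tbk1-/- pair (red diamonds), with the ratios of the same genes in the WT, Ikbke-/- and double mutant pairs (circles), all with values under 122 set to 122. Gas1 and Cdr2l lie opposite in WT and Ikbke-/- cells, as do Ccl5, Pim1 and Vcam1, while Fos, Fosb, Ereg and Hmgcs1 lie below 0 in WT and Ikbke-/- cells too.

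Contractile and cytoskeletal genes leaned slightly upward in signal. Of 24 genes 22 had a ratio above 0 in Tbk1-/- cells, the median was 0.17, and 0 were 2-fold higher or lower. The median was 0.03 over the 7495 genes above the floor on both Tbk1-/- arrays. Without further scaling the median of the 24 genes was 0.01, so its distance from 0 rests on the scaling. Cdc42ep3 (0.69), Cdc42ep1 (0.69), both effectors of the GTPase Cdc42, and Lmod1 (0.66), an actin nucleator of smooth muscle, had the highest ratios. Cdc42ep1 read 575 and 927 in Tbk1-/- cells against 786 and 391 in WT and 769.5 and 397 in Ikbke-/- cells. Acta2, smooth muscle actin, went from 22892 to 28771 (0.33).

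The remaining lists showed few 2-fold members in Tbk1-/- cells. Of 15 oxidative stress and metallothionein genes 0 passed, at a median of -0.35, with Srxn1 (-0.54), Nqo1 (-0.51) and Nfe2l2 (-0.49), all part of the Nrf2 antioxidant response, at the low end and Gsr (0.36) at the high end. Of 37 extracellular matrix genes 1 was lower, Serpinb2, while Eln, the elastin gene (-0.71), and Has2, a hyaluronan synthase (-0.59), came next and Col8a1 (0.37) was highest. Has2 gave 1.40 in WT and 1.96 in Ikbke-/- cells. The 23 Hedgehog, Wnt and Notch genes held 1 higher gene, Gas1, and 1 lower, Sfrp1, with the Wnt receptors Fzd2 (0.74) and Fzd6 (0.68) beneath 2-fold. Of 23 hypoxia and glycolysis genes 1 was lower, Ndrg1, next to Slc2a1 (-0.51), a glucose transporter, Hk2 (-0.38) and Pdk1 (0.68), and 6 were lower in the double mutant.

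No member of 7 further lists, or of the 8 lists of cell type markers, passed 2-fold in Tbk1-/- cells. Among 35 cell cycle genes Bub1 (at least 1.77-fold lower), Cdt1 (-0.57) and Ccnd3 (0.46) were among the widest. The 19 p53 targets included Plk3 (at least 1.94-fold lower, 237 to 81.7), Fas (0.52) and Bbc3 (-0.43). The 27 unfolded protein and amino acid stress genes were led by Herpud1 (0.51) and the chaperone Hspa5 (0.33), and the 15 heat shock genes by Hspa1a (-0.68) and Hspe1 (-0.57). For these last 2 lists the Tbk1-/- mock signal was the highest of the 4 in 15 of 27 and 9 of 15 genes. Among 21 cell death genes Casp12 (0.61) and Mcl1 (-0.59) were past 1.5-fold. The 17 retinoid, lipid and steroid response genes were led by the clock genes Nr1d1 (-0.95), Per1 (-0.59) and Nr1d2 (-0.56). Of 22 genes of the TGF-beta family and its targets, Tgfb3 (0.74, 2487 to 4150), Id1 (-0.65) and Tgif1 (-0.59) were past 1.5-fold.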

How the data were processed

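RNA of 8 mouse fibroblast cultures was measured on 1-colour Affymetrix arrays. The authors deposited a linear signal intensity for each probe set, computed with MAS5 per the submitters' processing notes. The scaling target, detection calls and any pooling are not given in these sources. The design text names an older array type than the probe set names belong to. Gene names came from the platform annotation: of 22626 probe sets without controls 20380 had 1 symbol, 691 several and 1555 none, and 20351 matched RefSeq. Signals were scaled to a 2% trimmed mean of 500, the brightest probe set by mean signal stood for its gene, and values under the 40th percentile (122) were set to it. Where the floor replaced a value, the ratio is a lower bound, written "at least". Ratios between groups were tested with limma 3.58.1 in R 4.3.3 on the 4 pair ratios (lmFit and eBayes, 2-sided, Benjamini-Hochberg). In the fit with WT and Ikbke-/- cells as a group, such p-values rest on the difference between their ratios, moderated over genes. The Tbk1-/- and double mutant pairs, with 1 ratio each, were assumed to vary alike, and no spread of their own was measured. The number of arrays limits the precision. On simulated data with the same noise in every pair, the fit was checked for its estimates and false calls. No check was set on its power to call a changed gene. The Tbk1-/- mock array is shared by every value of that pair.

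All 67 genes past 2-fold are named, with up to 4 members per list, the immediate early and MAP kinase genes past 1.5-fold, and a set of interferon and NF-kB genes. Further list members were added for their role after their values were seen. The comparison, the lists and these rules were chosen with earlier results of these data known. Alternatives covered scaling, floor, fold, probe set, the genes fitted and each pair left out. Figures were drawn with matplotlib 3.10.9.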

Additional observations from a re-analysis of the deposited data

Results flagged for a closer look

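In 5 genes the Tbk1-/- ratio was past 2-fold in the direction opposite to 2-fold ratios in both Tbk1+/+ pairs. Their log2 ratios in Tbk1-/- cells were 2.76 for Gas1, 1.52 for Cdr2l (a lower bound), -1.40 for Ccl5, -1.07 for Pim1 and -1.05 for Vcam1. The mean of the WT and Ikbke-/- ratios was -1.81, -1.20, 4.26, 1.25 and 1.30 in the same order. None of these differences passed limma's threshold over 9626 genes, with adjusted p of 0.407 for Gas1 and 0.398 for the other 4. When limma was run on 6665 genes that no array had under the floor, Cdr2l and Pim1 did not enter. The differences there were -5.66 for Ccl5, -2.35 for Vcam1 and 4.56 for Gas1. The 5 genes were chosen by these same ratios, which fixed large differences in advance, so the fit is no test of them.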

How the results depend on the processing

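Each ratio rests on 1 array a side, so no alternative measures its error. The count of genes higher in Tbk1-/- cells (28) was 207 with the floor at the 20th percentile, 4 with it at the 60th, 222 at 1.5-fold, 2 at 3-fold and 5 when the higher signal had to reach 4 times the floor. The count of genes lower (39) was 252, 21, 200, 3 and 22 under the same settings, 105 without further scaling and 25 with the mean of all probe sets of a gene. Without further scaling all 39 lower genes and 15 of the 28 higher ones kept their call, with the median of all genes at -0.10. After quantile normalization 38 and 22 kept it, and when scaled to the median all 67 did. No called ratio changed sign under the scalings, floors and probe set rules tried. Neither the shift of 0.18 without further scaling nor a change of floor could reverse a 2-fold ratio. The limma counts of lower and higher ratios against the Tbk1+/+ pairs (0 and 0) were 66 and 13 for genes above the floor on all 8 arrays, 176 and 23 with additive terms, and 99 and 5 with 2 groups. The fits with additive terms and with 2 groups pool the Tbk1-/- pair with the double mutant pair. Their counts are therefore not for the Tbk1-/- pair alone. With 2 groups, the calls were lost when the WT, Ikbke-/- or double mutant pair was left out in turn. Without the double mutant pair the fit repeats the one reported. The counts of the 4-pair fit were also 0 without further scaling, after quantile normalization and with no filter. In these 6 settings and the fit as reported, 357 to 638 lower and 593 to 891 higher ratios had an unadjusted p under 0.05. The cause of these differences was not tested. No paired analysis was possible because no group has a second array to form a block, and the limma fits take the B-DNA to mock ratio within each genotype. Signals near the floor of 122 limit ratios of weakly expressed genes.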
